A study of Mus musculus with 4 samples.

Results

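The insulin-like growth factor (IGF) system was taken as 10 genes, those of the ligands Igf1 and Igf2, the receptors Igf1r, Igf2r and Insr, the adaptors Irs1 and Irs2, and the binding proteins Igfbp2, Igfbp3 and Igfbp5. They are 10 of the 18193 genes with a named probe set on the Affymetrix mouse arrays of this study. All probe sets annotated to 1 of these symbols alone were taken, 23 in all. A further probe set shared by Airn and Igf2r was left out.

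Expression was measured in FoxO6-/- mice and WT mice, separately for mandible and maxilla and for brain, with 1 array for each tissue and genotype and 4 arrays in all. FoxO6-/- mice carry a germline replacement of the whole FoxO6 coding region by LacZ and neomycin resistance cassettes, so the loss is not limited to a cell type. All mice are labelled postnatal day 0, while the study's text describes the jaw tissue as embryonic. By the methods RNA of 4 animals was pooled for WT and for mutant mice, the mutants including heterozygous and null mice. The pool is given for mandible and maxilla by name and not for brain. No probe set is named Foxo6, so the deleted gene gives no check of the labels.

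IGF1 and IGF2 are secreted growth factors that bind the IGF1 receptor, a tyrosine kinase, and IGF2 also acts through a form of the insulin receptor. The IGF2 receptor has no kinase and removes IGF2 from the cell surface, and IGF binding proteins carry the ligands and limit or prolong their action. Activated receptors phosphorylate the insulin receptor substrates IRS1 and IRS2, which recruit PI3 kinase and switch on AKT. AKT in turn phosphorylates FoxO factors. The question put to the arrays was how these genes differ between jaw and brain and whether they differ between FoxO6-/- and WT in either tissue.

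Each value is a MAS5 signal, a linear summary of a probe set's intensity. The signals share a trimmed mean of 500.0 on all 4 arrays. The median of all signals, 101, served as a floor, and 19 of the 23 probe sets had a mean signal at or above it. Each gene was represented by its brightest probe set, and all 10 genes passed the floor. Signals of different probe sets depend on their probes, so levels are compared between arrays and not between genes.

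The tissue labels were checked against markers. The 8 neuronal genes all had more signal in brain, 7 of them called by limma, with summed signals of 2953 (FoxO6-/-) and 4529 (WT) in mandible and maxilla against 56490.2 and 44759 in brain (FoxO6-/-, WT). The transthyretin gene Ttr, a choroid plexus marker, had 51.0 and 30.6 in mandible and maxilla and 18837 and 24775 in brain. The choroid plexus list was mixed. Of its 5 genes fitted, 3 were lower and 2 higher in mandible and maxilla, and only Ttr was called. The brain arrays also carried strong signals of tissue outside the brain. Summed over 8 skeletal muscle genes, the signal was 151322 (FoxO6-/-) and 134986 (WT) in mandible and maxilla and 64579 (FoxO6-/-) and 76976 (WT) in brain. For 6 bone genes the sums were 33773 and 28233 against 17059.9 and 16320.4, and for 8 genes of skin and oral epithelium 96666 and 72118 against 19750.0 and 14633. In other lists the tissues were closer. For 8 cartilage genes the sums were 21991 and 36974 against 42116 and 24512 in brain. For 10 genes of fibroblasts and meninges they were 141129 and 109450 against 113024 and 101955. The adipocyte genes stood highest on the WT brain array, with a sum over 5 genes of 65156 against 10637 on the FoxO6-/- brain array and 6786 and 5726 in mandible and maxilla (FoxO6-/-, WT). Which cells gave these brain signals was not checked, and how far they bear on the IGF genes was not tested.

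**Figure D1:**
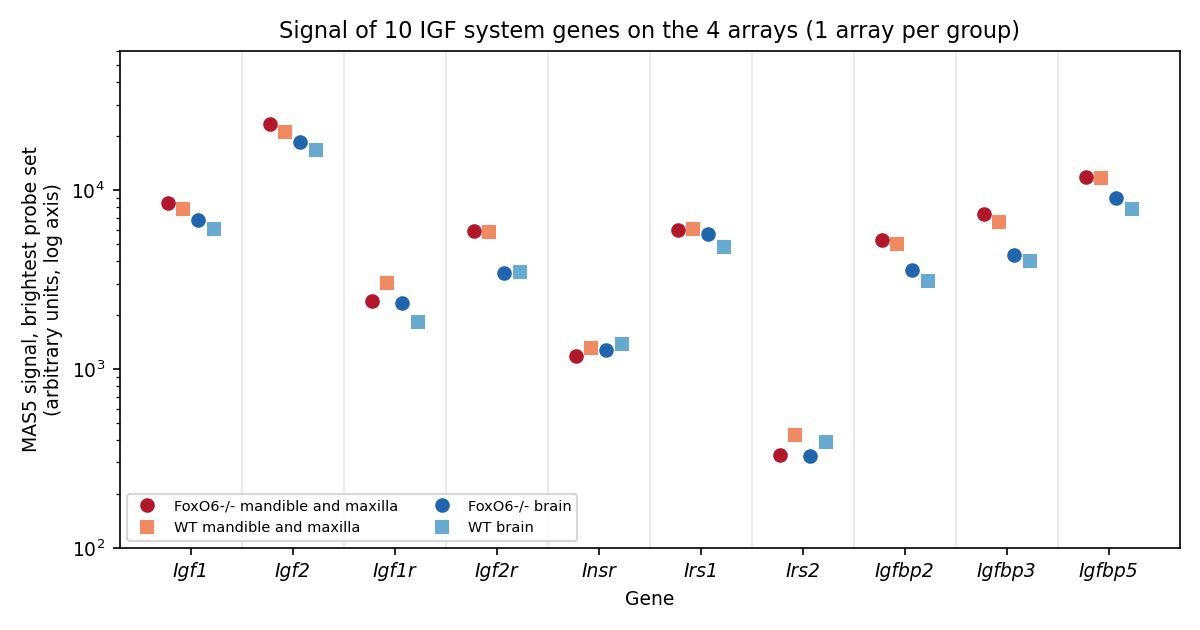
MAS5 signal (vertical axis, arbitrary units, log axis) of the brightest probe set of each of the 10 IGF system genes (horizontal axis), with a point for each array, in the order FoxO6-/- mandible and maxilla, WT mandible and maxilla, FoxO6-/- brain and WT brain. For 8 genes both mandible and maxilla points lie above both brain points, while Insr and Irs2 overlap.

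Mandible and maxilla had more signal than brain for most IGF system genes, but by less than 2-fold. On their brightest probe sets 8 of the 10 genes had both mandible and maxilla arrays above both brain arrays, while 36.4% of all 12569 genes compared did so and 29.1% had both below. The largest differences were those of Igf2r (1.70-fold), Igfbp3 (1.68-fold) and Igfbp2 (1.55-fold). In a limma fit on the log2 signals of all 12569 genes, with tissue and genotype as terms, an adjusted p under 0.05 was reached by 0 of the 10, while 6.48% of all genes passed it as higher and 8.73% as lower in mandible and maxilla. At an unadjusted p under 0.05 there were 4 of the 10, Igf2r, Igfbp2, Igfbp3 and Igfbp5, all higher in mandible and maxilla, where 17.2% of all genes were higher at that limit and 33.7% passed it either way. The median log2 difference of the 10 genes was 0.36, against 0.05 for all genes. In this fit the 2 genotypes stand in for replicates of a tissue. In whole tissue, fewer cells of a type and less RNA per cell cannot be told apart.

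Both ligand genes had more signal in mandible and maxilla. The brightest Igf1 probe set had 8467 and 7844 in mandible and maxilla (FoxO6-/-, WT) and 6763 and 6091 in brain (FoxO6-/-, WT). The tissues do not overlap, and the log2 difference was 0.34 ± 0.15 (SE, 2 arrays per tissue), with an adjusted p of 0.212 from limma. The next brightest Igf1 probe set gave 8205 and 7294 against 6749 and 5517 in the same order of arrays. A dimmer one gave 1392 and 1249 against 859 and 799, and the dimmest 885 and 850.25 against 597 and 568. Fitted with every probe set on its own, these 4 probe sets had log2 differences of 0.34, 0.34, 0.67 and 0.58, the 2 dimmer ones having the larger values.

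Igf2, an imprinted fetal growth factor gene expressed from the paternal copy in most tissues and from both copies in the choroid plexus and meninges of rodents, had 23466 and 20966 in mandible and maxilla (FoxO6-/-, WT) and 18639 and 16771.5 in brain (FoxO6-/-, WT). The log2 difference was 0.33 ± 0.15 (SE, 2 arrays per tissue) and the adjusted p from limma was 0.227. The other Igf2 probe set was much dimmer, with 223 and 379 in mandible and maxilla against 103 and 172 in brain. Its log2 difference between the tissues was 1.13 ± 0.17 (SE, 2 arrays per tissue). Of the 19 probe sets it alone passed when limma was fitted to all 23057 probe sets singly, with an adjusted p of 0.0354, where 5.56% of probe sets were called higher and 7.58% lower. The 2 Igf2 probe sets share the direction between tissues and differ in its size.

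Among the receptors, Igf2r had the largest difference between the tissues. Its brightest probe set had 5885 and 5856 in mandible and maxilla (FoxO6-/-, WT) and 3458 and 3459 in brain (FoxO6-/-, WT). Both genotypes gave nearly the same ratio, 1.70 in FoxO6-/- and 1.69 in WT. The log2 difference of 0.76 ± 0.15 (SE, 2 arrays per tissue) had an adjusted p of 0.0579 from limma. The other Igf2r probe set, with 3319.7 and 3215 against 1976 and 2027, had 0.71.

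Igf1r, the kinase receptor of both ligands, had a wider gap between the tissues on the WT arrays than on the FoxO6-/- arrays, a difference that was not tested. On the brightest probe set it had 2402 and 3029.5 in mandible and maxilla (FoxO6-/-, WT) and 2348 and 1839.6 in brain (FoxO6-/-, WT). The ratio of mandible and maxilla over brain was 1.02 in FoxO6-/- and 1.65 in WT, and the joint log2 difference was 0.38 ± 0.24 (SE, 2 arrays per tissue) with an adjusted p of 0.351 from limma. Of the other probe sets above the floor, one had 1637 and 2107 against 1730.2 and 1457, so that the tissues overlapped. The third had 427 and 519 against 395 and 378. The remaining 2 Igf1r probe sets were below the floor.

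Insr, the insulin receptor gene, had 1186 and 1313 in mandible and maxilla (FoxO6-/-, WT) and 1272 and 1384 in brain (FoxO6-/-, WT). The tissues overlap, and it was the only one of the 10 genes with a fitted difference below 0, of -0.09 ± 0.15 (SE, 2 arrays per tissue) on the log2 scale. The adjusted p from limma was 0.713. Its other 2 probe sets, with no array above 44.3, lie below the floor.

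The adaptor genes were close between the tissues. Irs1 had 5990.2 and 6044 in mandible and maxilla (FoxO6-/-, WT) and 5655 and 4784 in brain (FoxO6-/-, WT), a log2 difference of 0.21 ± 0.16 (SE, 2 arrays per tissue) with an adjusted p of 0.433 from limma. Irs2 had 329.9 and 429 in mandible and maxilla against 326 and 388 in brain, so that the arrays sort by genotype and not by tissue, as the Insr arrays do. Its log2 difference was 0.08 ± 0.15 (SE, 2 arrays per tissue), with an adjusted p of 0.746 from limma. Each has a single probe set.

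Irs2 is a known target of FoxO factors in liver, which bind an insulin response element at its promoter, so the starts of the member genes were searched for the letters of such elements. RefSeq promoter windows of assembly GRCm38.p6 (300 bases around a gene start) were at hand for 9 of the 10 genes, in 13 windows, and Insr had none. The insulin response element core TTGTTTTG, sought on both strands, was found at the start of Irs1 and of Irs2 and in 2.51% of all 32851 windows. The forkhead consensus TGTTTAC was in none of the 13 windows and in 3.65% of all. The letters around the element are shown 5′ to 3′ on the gene's strand, with the element in capitals, for Irs1 (chr1:82291435-82291502, minus strand) and for Irs2 (chr8:11008930-11008997, minus strand).
Irs1: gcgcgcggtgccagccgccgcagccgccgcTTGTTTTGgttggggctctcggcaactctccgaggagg
Irs2: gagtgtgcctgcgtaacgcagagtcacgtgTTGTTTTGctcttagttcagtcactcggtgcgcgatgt
The element begins 33 bases before the annotated start in Irs1 and 38 bases before it in Irs2. A match of letters is a description and shows no binding.

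All 3 binding protein genes had more signal in mandible and maxilla on their brightest probe sets. Igfbp2, whose product binds both ligands and is abundant in fetal tissue, had 5266 and 5004 in mandible and maxilla (FoxO6-/-, WT) and 3551 and 3084 in brain (FoxO6-/-, WT). The log2 difference was 0.63 ± 0.15 (SE, 2 arrays per tissue) with an adjusted p of 0.0842 from limma. Igfbp3, the main IGF carrier in the circulation, had 7356 and 6614 against 4325 and 3991, a log2 difference of 0.75 ± 0.15 with an adjusted p of 0.0603 from limma. Its other probe set had 3672 and 3077 against 2306 and 2069.9. In both genes every mandible and maxilla array stood above every brain array.

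Igfbp5, an IGF binding protein of bone and muscle, had 11785 and 11673 in mandible and maxilla (FoxO6-/-, WT) and 8986 and 7862 in brain (FoxO6-/-, WT). The log2 difference was 0.48 ± 0.15 (SE, 2 arrays per tissue), with an adjusted p of 0.138 from limma. A dim Igfbp5 probe set ran the other way, with 105 and 118 in mandible and maxilla against 119 and 194 in brain and a log2 difference of -0.44 ± 0.22 (SE, 2 arrays per tissue). It was the only one of the 19 probe sets above the floor with both mandible and maxilla arrays below both brain arrays. Of the others 15 had both mandible and maxilla arrays above both brain arrays, and 3 overlapped. Several of these probe sets measure the same gene on the same arrays, so they do not count as separate genes. The share of all probe sets with this order was not counted. By gene, 8 of 10 had it on their brightest probe sets, against 36.4% of all 12569 genes compared.

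**Figure D2:**
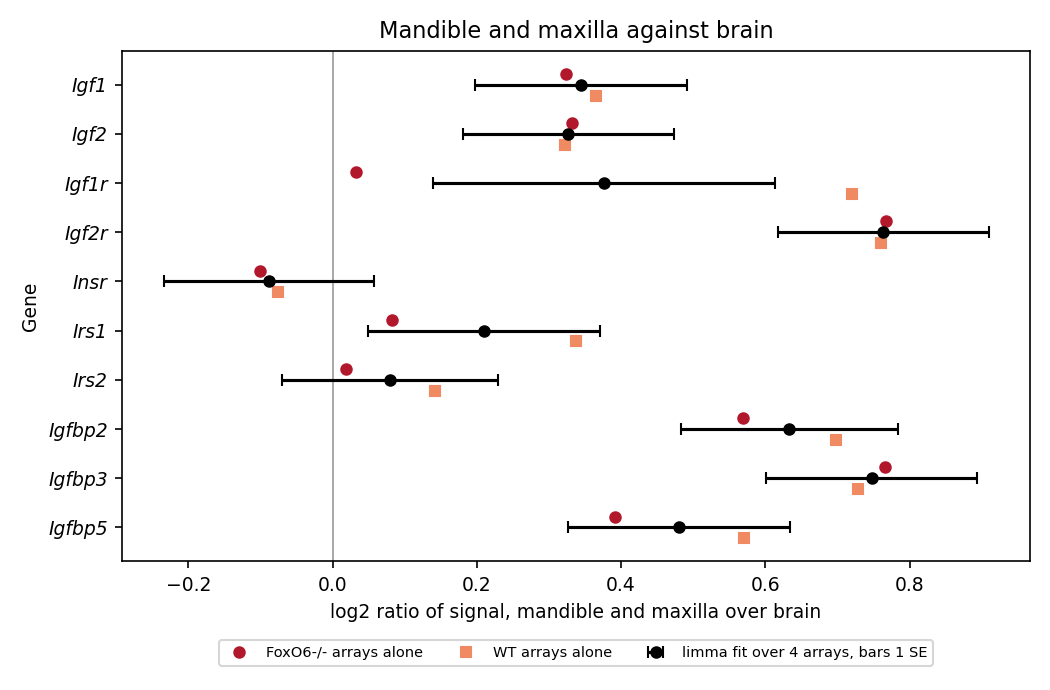
Log2 ratio of signal, mandible and maxilla over brain (horizontal axis), for the brightest probe set of each IGF system gene (rows). Circles in red are the FoxO6-/- arrays alone, squares the WT arrays alone, and black points the limma fit over 4 arrays with bars of 1 SE. Igf2r at 0.76 and Igfbp3 at 0.75 lie highest, Insr at -0.09 is below 0, and the genotypes lie farthest apart for Igf1r.

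Of 62 further genes of the IGF and insulin pathway 55 have a named probe set and 46 passed the floor. In mandible and maxilla against brain 1 was called higher and 1 lower by limma, 4.35% of those fitted, while 15.2% of all genes were called in either direction. Their median log2 difference was 0.13. The higher one was Cdkn1c, an imprinted inhibitor of the cell cycle and of fetal growth, with 17857 and 17469.5 in mandible and maxilla against 8540.1 and 8935 in brain on the FoxO6-/- and WT arrays, a log2 difference of 1.02 and an adjusted p of 0.0356 from limma. The lower one was Sh2b2, an adaptor of the insulin receptor, with 54.9 and 134 against 205 and 355, a log2 difference of -1.65 and an adjusted p of 0.0255 from limma.

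The pathway lists differed in sign. Of all 12569 genes 6878 had a fitted difference above 0 and 5691 one below, with a median of 0.05. All 8 measured genes of the list of IGF2 mRNA binding proteins and imprinted genes had a fitted difference above 0, with a median of 0.41, as did 6 of 7 further binding proteins and proteases, with a median of 0.27. The 19 genes of PI3 kinase, AKT and their brakes had 7 above 0 and 12 below and a median of -0.06, and the 10 adaptors had 4 above and 6 below and a median of -0.11. Markers of bone, skeletal muscle and epithelium had medians of 0.88, 1.25 and 1.71, and those of neurons -4.02, farther from 0 than the median of the IGF genes. Markers of fibroblasts and meninges had a median of 0.23 and those of pericytes and vascular smooth muscle 0.36.

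**Figure D3:**
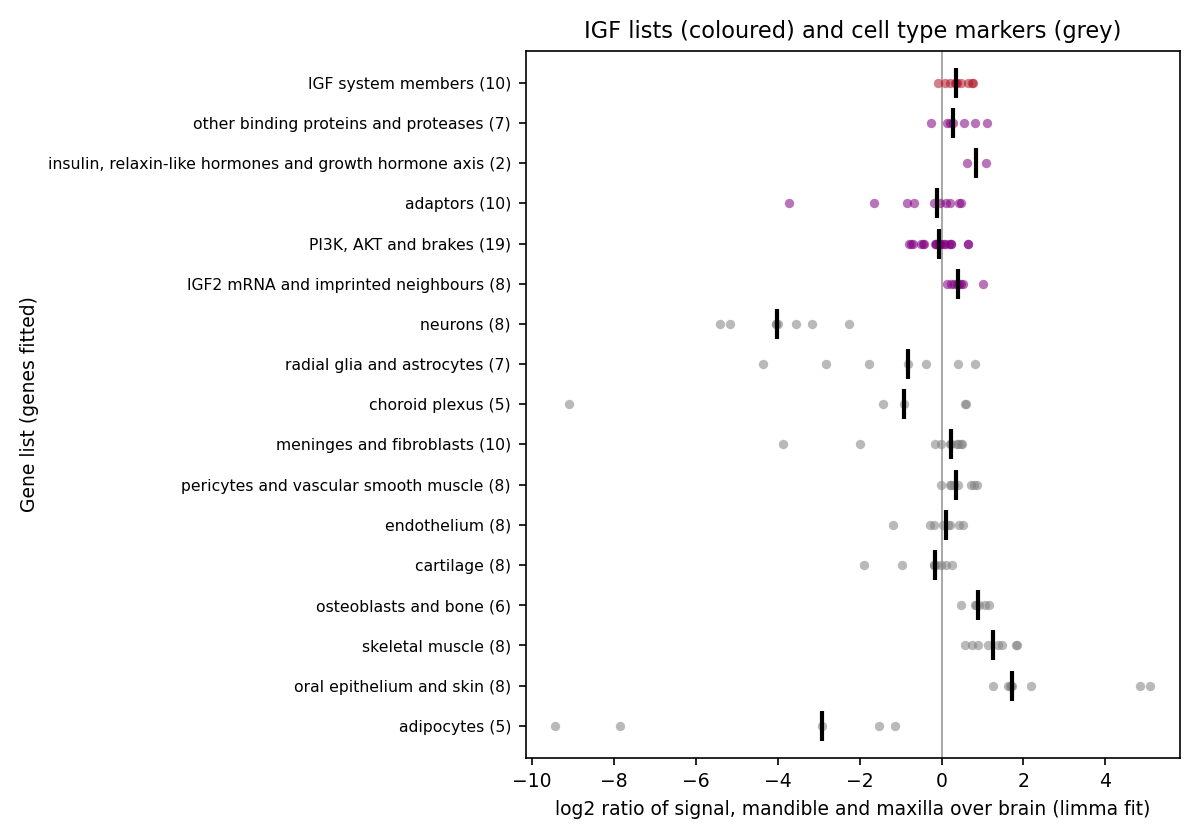
Log2 ratio of signal, mandible and maxilla over brain, from the limma fit (horizontal axis), with 1 point per gene and 1 row per gene list, and the number of genes fitted in brackets. Black ticks are list medians, the IGF system genes and the other pathway lists are coloured, and cell type markers are grey. The IGF system genes lie between -0.09 and 0.76, while neuronal markers have a median of -4.02 and markers of oral epithelium and skin one of 1.71.

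Between genotypes, none of the 10 genes reached a 2-fold difference on its brightest probe set in either tissue. In mandible and maxilla the log2 ratios of FoxO6-/- over WT ran from -0.38 to 0.16 with a median of 0.01, while the median of all genes was -0.01 and 2.28% of 12186 genes differed by 2-fold, 0.591% higher and 1.69% lower. Of these, 72 were higher and 206 lower, so that 25.9% were higher, a share of 44.0% after quantile normalization and of 48.8% after median centring. In brain the ratios of the 10 genes ran from -0.25 to 0.35 with a median of 0.15, while the median of all genes was 0.05 and 3.16% of 12327 genes differed by 2-fold, 1.13% higher and 2.03% lower. There 35.7% of the genes that differed were higher, and 54.2% after median centring. With 1 array per genotype in a tissue these ratios have no replicate check. Between the 2 brightest probe sets of a gene the log2 ratio of FoxO6-/- over WT differed with an SD of 0.49 (mandible and maxilla) and 0.43 (brain) over 5031 genes, and the ratio of every brightest IGF probe set is smaller than that. Ratios of 3' to 5' control signal, which reflect how intact the RNA was, stood apart on the FoxO6-/- mandible and maxilla array, with 3.37 for Actb against 2.21 to 2.23 on the other arrays. Its part in these ratios was not tested.

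Over both tissues limma called 0 of 12569 genes between genotypes at an adjusted p under 0.05, where the smallest adjusted p was 0.902 and 588 genes (4.68%) had an unadjusted p under 0.05. In this fit the 2 tissues stand in for replicates of a genotype, and a genotype difference that varies between the tissues counts as error. Of the 10 genes 0 had an unadjusted p under 0.05. Their signs were mixed. Igf1, Igf2, Igfbp2, Igfbp3 and Igfbp5 were higher in FoxO6-/- in both tissues, 5 of 10 genes where 28.8% of all genes were so, although after quantile normalization all of these but Igfbp3 were below 0 in mandible and maxilla. Epithelial markers were also higher in FoxO6-/- in both tissues, 8 of 8 in each, with median log2 ratios of 0.37 in mandible and maxilla and 0.44 in brain. Bone markers had ratios above 0 for 5 of 6 in mandible and maxilla (median 0.27) and 4 of 5 in brain (median 0.35), and fibroblast and meningeal markers for 6 of 9 (median 0.05) and 8 of 10 (median 0.23). Other lists did not share this sign. Markers of pericytes and vascular smooth muscle were above 0 for 3 of 8 in each tissue (medians -0.13 and -0.06). Skeletal muscle markers were above 0 for 4 of 8 in mandible and maxilla (median 0.01) and 1 of 8 in brain (median -0.27). Endothelial markers were so for 6 of 8 (median 0.21) and 1 of 8 (median -0.24). The part of these markers in the IGF ratios was not tested. Insr and Irs2 were lower in both, 2 of 10 where 23.9% of all genes were so. Igf1r and Irs1 were lower in mandible and maxilla and higher in brain, and Igf2r the reverse, as 27.8% and 19.5% of all genes were.

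Irs2 had the lowest ratios among the brightest probe sets in both tissues. Its signal was 329.9 in FoxO6-/- and 429 in WT mandible and maxilla, a log2 ratio of -0.38, and 326 in FoxO6-/- and 388 in WT brain, a log2 ratio of -0.25. Both FoxO6-/- arrays were below both WT arrays. The joint log2 difference was -0.32 ± 0.15 (SE, 2 arrays per genotype), with an adjusted p of 0.902 from limma. Insr had ratios of -0.15 (mandible and maxilla) and -0.12 (brain), which came to -0.01 and 0.02 after median centring. On the brain arrays adipocyte markers were also lower in FoxO6-/-, 5 of 5 by 2-fold or more (median log2 ratio -3.17). On the mandible and maxilla arrays 3 of 3 measured adipocyte markers had ratios above 0. Adipocyte markers were not alone. In brain 7 of 8 endothelial markers (median -0.24) and 7 of 8 skeletal muscle markers (median -0.27) were below 0. In mandible and maxilla 2 of 8 and 4 of 8 of these were. The part of any of these markers in the Irs2 and Insr ratios was not tested.

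Igf1r was the gene whose ratio differed most between the tissues. It had 2402 in FoxO6-/- against 3029.5 in WT mandible and maxilla, a log2 ratio of -0.34, and 2348 in FoxO6-/- against 1839.6 in WT brain, a log2 ratio of 0.35. All 3 probe sets above the floor shared this pattern, with -0.34, -0.36 and -0.28 in mandible and maxilla and 0.35, 0.25 and 0.06 in brain. The 2 Igf1r probe sets below the floor did not. They had -0.15 and -0.27 in mandible and maxilla and -0.56 and -0.84 in brain. With 1 array per group the difference between the tissues could not be tested, and 27.8% of all genes were likewise lower in FoxO6-/- mandible and maxilla and higher in FoxO6-/- brain. Cartilage and neuronal markers had ratios of the same signs. All 8 cartilage markers were lower in FoxO6-/- mandible and maxilla, with a summed signal of 21991 against 36974, and all 8 were higher in FoxO6-/- brain, with 42116 against 24512. All 8 neuronal markers were likewise lower in FoxO6-/- mandible and maxilla (median log2 ratio -0.78) and higher in FoxO6-/- brain (median 0.36). Their part in the Igf1r ratios was not tested.

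Both ligand genes had somewhat more signal in FoxO6-/- on their brightest probe sets, but in mandible and maxilla quantile normalization turned the log2 ratio to -0.01 for Igf1 and -0.20 for Igf2. Igf1 had log2 ratios of 0.11 in mandible and maxilla and 0.15 in brain, and all 8 ratios of its 4 probe sets were above 0, between 0.06 and 0.29. For Igf2 the brightest probe set had 0.16 in mandible and maxilla and 0.15 in brain, whereas the dim one had -0.77, with 223 in FoxO6-/- against 379 in WT, and -0.74, with 103 in FoxO6-/- against 172 in WT. The Igf2 probe sets thus gave opposite signs in both tissues, and the dim one held the largest ratios of the 19 probe sets.

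Igf2r was nearly equal in the genotypes, with log2 ratios of 0.01 in mandible and maxilla and -5.0e-04 in brain. Irs1 had -0.01 in mandible and maxilla and 0.24 in brain. Among the binding proteins Igfbp3 had 0.15 in mandible and maxilla and 0.12 in brain, and its other probe set had 0.25 and 0.16. Igfbp2 had 0.07 and 0.20, and Igfbp5 had 0.01 and 0.19, while the dim Igfbp5 probe set had -0.17 and -0.71. Small ratios on the mandible and maxilla arrays depend on the scaling. After quantile normalization only Igfbp3 of the 10 genes was above 0 there, with 0.04, whereas after median centring 7 of 10 were. Igf1r below 0 in mandible and maxilla and above 0 in brain held with quantile normalization and median centring. It also held with the mean of its probe sets above the floor. Irs2 below 0 in both held with quantile normalization and median centring, while its single probe set leaves nothing to average.

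**Figure D4:**
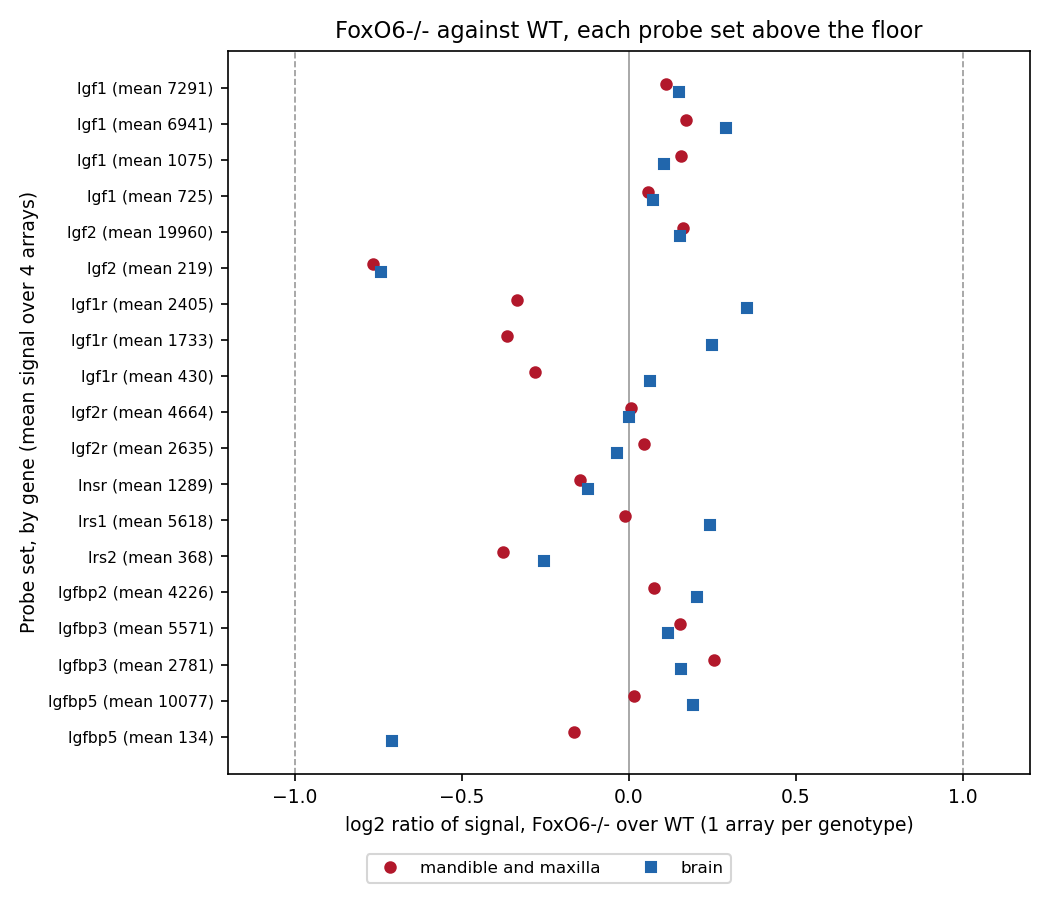
Log2 ratio of signal, FoxO6-/- over WT (horizontal axis), for each of the 19 probe sets above the floor (rows, named by gene with the mean signal over 4 arrays), with circles for mandible and maxilla and squares for brain, each from 1 array per genotype. Dashed lines mark a 2-fold difference, which none reached. The 3 Igf1r probe sets lie left of 0 in mandible and maxilla and right of 0 in brain, and the 2 Igf2 probe sets lie on opposite sides.

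Of the other pathway genes 0 of 44 differed by 2-fold between genotypes in mandible and maxilla, where 2.28% of all genes did. In brain 1 of 45 did, where 3.16% of all genes did. That gene was Irs4, an insulin receptor substrate of the hypothalamus, with 267 in FoxO6-/- brain against 762 in WT brain, a log2 ratio of -1.51. In mandible and maxilla the widest ratios were 0.85 for the adaptor Dok4 and 0.62 for the kinase Akt2, and -0.64 for Tsc1, a brake on mTOR, and -0.48 for Stc1, which encodes an inhibitor of IGF binding protein cleavage. In brain Sh2b2 had -0.79, Pik3r3, a regulatory subunit of PI3 kinase, 0.44, and Pappa, the protease that cleaves binding proteins to free IGF, 0.42. Over both tissues the widest coefficients were -1.04 for Sh2b2 and -0.38 for Tsc1, and 0.40 for Dok1 and 0.36 for the protease gene Htra1, each with an adjusted p of 0.902 from limma. In mandible and maxilla Sh2b2 had a mean of 94.4, below the floor, and is not among the 44 genes. Its log2 ratio there was -1.28.

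Genes with the most similar profile over the 4 arrays were sought among 3459 genes with at least a 2-fold range, by the Euclidean distance of log2 signals centred on each gene's mean. For Igf1, which itself spans 0.48, they were S100a4 (distance 0.38), Ndnf and 9430083A17Rik, and for Igf2 they were S100a4 (0.38), Kdelr3 and Ndnf. For Igfbp5 they were Lins1 (0.31), Sh3bgrl2 and Fgfr2, the last a receptor of fibroblast growth factors with 2667 and 2269 in mandible and maxilla (FoxO6-/-, WT) and 1628 and 1325 in brain (FoxO6-/-, WT). Igf2 spans 0.48 and Igfbp5 0.58, so like Igf1 they lack the 2-fold range required of the genes searched. Genes as flat as these were therefore not among the candidates. Likeness over 4 arrays describes these arrays only.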

How the data were processed

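The authors hybridised RNA to Affymetrix mouse arrays and deposited the MAS5 signal of each probe set as a linear intensity. No source used here names the MAS5 version. Of 45101 probe sets 64 are controls, 34945 have 1 gene, 932 several and 9160 none in the platform annotation used here, and 34741 matched the RefSeq gene table by Entrez ID, with 0 symbols changed. Signals were used as deposited and converted to log2. The probe set with the highest mean stands for a gene, and a gene was compared when the mean of the signals compared was at least 101. Precision is limited by the number of arrays.

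Tissue and genotype were fitted together over all 4 arrays with limma 3.58.1 (lmFit and eBayes, R 4.3.3, Benjamini-Hochberg adjustment over all genes fitted, 1 residual degree of freedom). Genotypes within a tissue have 1 array each and no test, and at least 2-fold was counted. The fit was tested on simulated data. Nothing states that the arrays come from separate litters, so p-values measure no spread beyond these arrays. The step eBayes draws each gene's variance toward one shared over all genes, with 2.40 prior degrees of freedom against 1 residual. SEs and p-values thus rest in large part on other genes, and SEs near 0.15 recur for this reason.

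The members, lists and tests were chosen with earlier results of these data known. All 10 members are named. Of the other pathway genes, up to 5 each way past the threshold between tissues and the 2 highest and 2 lowest between genotypes are named, with the 3 genes most like Igf1, Igf2 and Igfbp5 and at most 3 markers a list. Alternatives were quantile normalization, median centring, other floors, other probe set rules, other terms and leaving out each array. Python 3.11.15, numpy 2.4.6 and pandas 2.3.3 were used.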

Additional observations from a re-analysis of the deposited data

Results flagged for a closer look

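3 genes had log2 ratios of FoxO6-/- over WT of opposite sign in the 2 tissues on all their probe sets above the floor, with the difference untested because each group has 1 array. For Igf1r the ratio in mandible and maxilla was 0.69 lower than that in brain (a difference of -0.69), for Irs1 the difference was -0.25, and for Igf2r, whose ratios are both close to 0, it was 0.0074.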

How the results depend on the processing

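Calls among the IGF genes depended on the settings. Median centring moved the median of all genes between tissues to -0.07 (0.05 as reported) and that between genotypes over both tissues to 0.15 (0.01). Between tissues Igf2r and Igfbp3 passed an adjusted p under 0.05 in limma without a genotype term and with low values raised to the floor, and with Igfbp2 also with a variance trend or the floor at 524, where the smallest adjusted p was 0.0127 and 0.0269. Over all alternatives the smallest adjusted p of the 10 genes ran from 0.0127 to 0.203. With 3 arrays no genotype term could be kept, and leaving out any 1 array then lost both calls made on 4 arrays without that term (smallest adjusted p 0.0740 to 0.0980, against 0.0239). Irs2 turned to -0.041 after median centring, to -0.11 without the WT mandible and maxilla array and to -0.047 without the FoxO6-/- brain array, both without a genotype term. For genotype over both tissues, quantile normalization turned Igf2 to -0.056, Igf1r to -0.017 and Igf2r to -0.060. The mean of a gene's probe sets above the floor turned Igf2 to -0.30, Igf1r to -0.053 and Igfbp5 to -0.17. Median centring turned Insr to 0.0037. These reversed genes had not passed the threshold, and the cause was not tested.

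Over all genes, limma called 814 higher and 1097 lower between tissues, 0 and 0 with no floor, 1340 higher with a variance trend, and 1281 and 1748 of 23057 probe sets with every probe set on its own. Without a genotype term there were 1212 higher and 1495 lower on 4 arrays, and 635 to 713 higher and 853 to 1299 lower with 1 array also left out. Genes 2-fold higher in FoxO6-/- mandible and maxilla numbered 72, and 122 with quantile normalization, 124 with median centring, 1415 with no floor, 24 with the floor at 524 and 129 with probe sets averaged. Lower ones numbered 206, and 130 with median centring, 1432 with no floor and 45 with the higher floor. In brain 139 were higher, and 227 with median centring, 1515 with no floor, 35 with the higher floor and 215 with probe sets averaged, while 250 were lower, and 1314 with no floor and 111 with the higher floor. Of the other pathway genes 2 were called between tissues, and 0 with no floor and 5 with the higher floor. Between genotypes 0 differed by 2-fold in mandible and maxilla, and 1 with quantile normalization and 6 with no floor, and 1 differed in brain, and 6 with no floor and 0 with the higher floor. No paired analysis was possible because the labels number no replicates.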
